A study of Drosophila melanogaster with 12 samples.

Results

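The experiment described here is the abdominal fat body of adult female *Drosophila* with RNA interference against *pointed* (*pnt*), switched on in one group of flies and left off in the other. It comprised 6 of the series' 12 RNA-Seq libraries, taken by their tissue and induction labels. Libraries 101, 102 and 103 came from induced flies, and libraries 104, 105 and 106 from uninduced controls. The remaining 6 libraries held the gut of the same genotype and are used here for one comparison. All flies carried *UAS-Pnt RNAi* with the *S106* GeneSwitch driver in an outbred *Dahomey* background with the *w1118* mutation. GeneSwitch is a hormone-dependent form of the yeast activator GAL4, and *S106* activates it in the gut and the abdominal fat body. Induced females ate food with 200 µM RU486, the inducer of the driver, for 6 days after 48 h of mating, and controls ate food without it. The treatment label gives the RU486 dose for every sample, so control status was taken from the induction tag. No RU486-fed library without the RNAi construct was analysed here, so an effect of the RNAi and an effect of RU486 itself cannot be told apart. Each library pooled the tissue of 12 flies. The sample called fat body was the abdomen left after the gut and the reproductive anatomy had been removed, so it also held cuticle, oenocytes, muscle and other cells.

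The fat body is the insect counterpart of liver and adipose tissue. It stores fat and glycogen, secretes yolk protein, lipid carriers and insulin-like peptide, and releases antimicrobial peptides into the haemolymph. Pointed is an ETS-family transcription factor that activates genes downstream of receptor tyrosine kinases such as the EGF receptor. Its repressive relative Anterior open (Aop) binds similar sites and restrains the same class of genes. The comparison asks which fat body transcripts differed when *pnt* was targeted.

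Counts per library ranged from 4932359 (induced 101) to 9580571 (control 106), over 11056 genes. Levels are given below as CPM, the counts of a gene scaled to a common library size with edgeR's TMM factors. Every log2 fold change is induced minus control from edgeR with its standard error (SE), n = 3 libraries per group. Defining transcripts of the tissue were abundant: *apolpp*, which encodes the lipid carrier apolipophorin, stood at 7849.9 to 13178 CPM, and *Yp1*, encoding a yolk protein, at 10014 to 65398 CPM. *Cyp4g1*, an oenocyte cytochrome P450, stood at 20123 to 57952 CPM. In a principal component analysis of the deposited variance-stabilised values, the first component held 53.2% of the variance. Control 106 lay at 59.7 on it, induced 103 at 20.3 and the other 4 libraries between -33.7 and -9.74. Control 106 therefore stood apart from its group, and its value is given for most single genes below. Summed levels of gene lists are mostly given as group ranges.

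The spread among controls was wider than among induced libraries, mainly through control 106. Over the 9870 genes that averaged 10 or more counts, 27.1% differed more than 2-fold between control 106 and the mean of the other 2 controls. The share was 19.7% for control 104, 7.67% for control 105, and 4.36% to 8.91% for the induced libraries. For controls 104 and 105 the mean compared against included 106. The Spearman rank correlation of 104 with 105 was 0.956, against 0.956 to 0.965 between induced libraries. With control 106 it was 0.877 for 104 and 0.918 for 105. Control 106 lay more than 2-fold above all 5 other libraries at 488 genes and more than 2-fold below them at 434. The next highest counts were 42 genes above (induced 101) and 147 below (control 104).

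**Figure D1:**
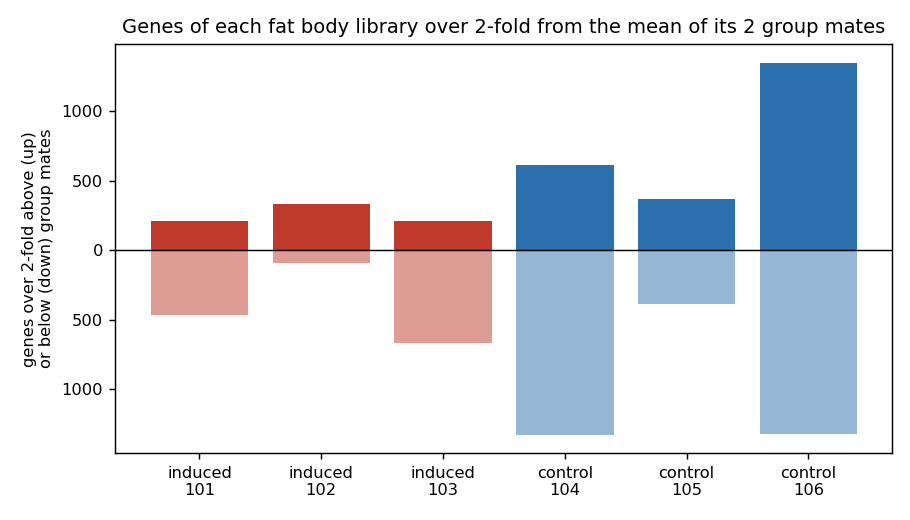
Number of fat body genes, among the 9870 that averaged 10 or more counts, that lay more than 2-fold above (upward bars) or below (downward, paler bars) the mean of the other 2 libraries of the same group, for each library. Control 106 had 1352 genes above and 1322 below, control 104 had 614 and 1330, and the induced libraries had at most 336 above and 672 below.

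Transcript of the targeted gene was slightly lower in the induced fat bodies, within the error of the comparison. *pnt* (FBgn0003118, chromosome 3R, 23290231 to 23346167) stood at 8.06, 10.2 and 10.8 CPM in induced libraries and 11.1, 11.2 and 13.4 CPM in controls. The groups did not overlap, but the highest induced library and the lowest control were 10.8 and 11.1 CPM. The log2 fold change was -0.30 (SE 0.26, 95% interval -0.91 to 0.31). A two-sided exact permutation test of the CPM gave p = 0.1, the smallest value that 3 against 3 libraries allow. In whole abdomens, less *pnt* RNA per cell and fewer *pnt*-expressing cells cannot be told apart.

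A list of ETS genes with *foxo* and *cic* gave no calls. Of its 9 measured genes, *pnt* included, 0 passed a false discovery rate (FDR) of 10% by edgeR or DESeq2 and 0 had an unadjusted p under 0.05. Their median log2 fold change was -0.05, the same as the -0.05 of all 11056 genes. *aop*, encoding the repressor, stood at 60.8, 58.9 and 48.9 CPM in induced and 77.7, 58.9 and 37.6 CPM in control libraries, so its groups overlapped. *Ets97D*, encoding the fly relative of the GA-binding protein, had the largest log2 fold change of the list in size at 0.50 (SE 0.27), with overlapping groups. Among 20 genes of EGF receptor signalling, *aos*, the feedback inhibitor of the receptor, stood at 7.48, 8.49 and 8.96 CPM in induced and 10.7, 12.5 and 12.5 CPM in control libraries. Its groups did not overlap, with a log2 fold change of -0.51 (SE 0.25). It was the only 1 of the 20 genes with separated groups, against 4.29% of all genes that were lower without overlap. The median of the list was -0.05, the same as that of all genes. *stet*, encoding a rhomboid protease that releases EGF-like ligands in the germline, stood at 29.9, 22.2 and 6.54 CPM against 10.4, 6.29 and 2.47 CPM. It was the list's single gene with an unadjusted p under 0.05, and its groups overlapped. *pyr*, encoding a ligand of the FGF receptor Heartless, stood at 3.07, 2.65 and 2.54 CPM against 5.42, 6.16 and 11.7 CPM, a log2 fold change of -1.49 (SE 0.41, DESeq2 adjusted p = 0.498).

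Across all genes, edgeR's quasi-likelihood test called 0 of 11056 genes at 10% FDR (0.0%), and its smallest adjusted p was 0.969. By the same test 188 genes (1.7%) were higher and 114 (1.03%) lower at an unadjusted p under 0.05. DESeq2, the tool named in the study's methods (there with a different FDR adjustment), called 12 genes higher (0.109%) and 4 lower (0.0363%). In 440 genes (3.98%) every induced library lay above every control, and in 474 (4.29%) below. The 16 DESeq2 calls comprised immune peptide genes, a retrotransposon-derived gene with its neighbour, hormone genes, an odorant-binding protein gene, a cytochrome P450 gene and genes with no role assigned here. The word "called" below means past 10% FDR by DESeq2, and none of these genes passed edgeR.

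**Figure D2:**
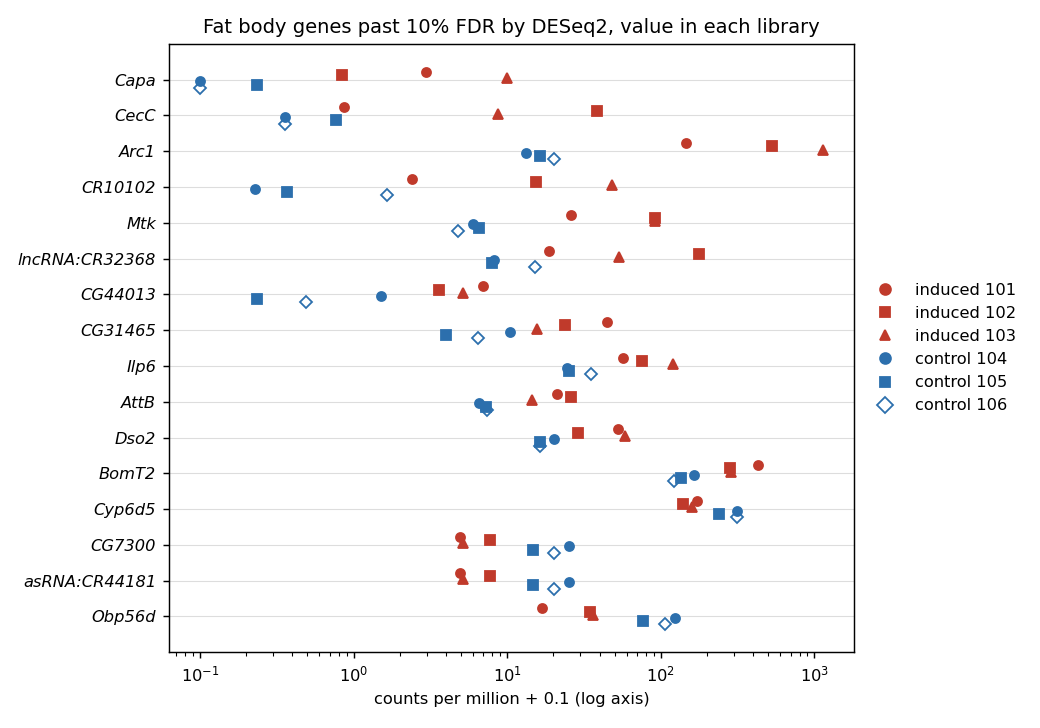
Level of each of the 16 genes past 10% FDR by DESeq2 in every fat body library, as CPM plus 0.1 on a log axis, ordered by edgeR's log2 fold change. Red symbols are induced libraries, blue symbols are controls, and the open diamond is control 106. In all 16 genes the groups did not overlap. *Arc1* stood at 145 to 1142 against 13.2 to 20.1 and *Obp56d* at 16.7 to 36.1 against 76.8 to 123.

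Of 13 antimicrobial peptide genes, *Mtk*, *CecC* and *AttB* were called higher in induced fat bodies. In the list 10 genes had a log2 fold change above 0 (4958 of all 11056 genes), 3 were called higher (0.109% of all genes) and 0 lower, and the median log2 fold change was 1.07 against -0.05 for all genes. The median was 1.07 without control 106 also. The summed level of the list, most of it from *Drs*, overlapped between groups, at 1252, 3109.6 and 1420.0 CPM in induced and 3169, 3034 and 1057 CPM in control libraries. *Mtk*, encoding the antifungal peptide metchnikowin, was the clearest, at 26.1, 92.2 and 92.1 CPM against 5.93, 6.43 and 4.67 CPM. It had a log2 fold change of 3.63 (SE 0.51, DESeq2 adjusted p = 6.43e-09) and was called whichever library was left out. *Mtk* lies within *Stacl* on the same strand.

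Induced 102 held the highest level of 10 of the 13 genes. *CecC*, encoding a cecropin (chromosome 3R, 30216484 to 30216938), stood at 0.767, 38.1 and 8.59 CPM against 0.258, 0.669 and 0.260 CPM. Induced 101 was thus close to the highest control, and the call was absent without induced 102 (adjusted p = 0.700) or control 106 (0.228). *DptA*, encoding diptericin, a peptide of the Imd pathway, had the same library order, at 5.56, 106 and 24.0 CPM against 6.97, 4.95 and 8.18 CPM. It was not called with all libraries (log2 fold change 2.75, SE 0.93, DESeq2 adjusted p = 0.382), and its groups overlapped through induced 101. *AttB*, encoding the antibacterial peptide attacin-B (chromosome 2R, 14749223 to 14750165), was more even, at 20.9, 26.0 and 14.4 CPM against 6.45, 7.23 and 7.27 CPM. Its log2 fold change was 1.55 (SE 0.30, DESeq2 adjusted p = 0.00717), with no call without 101, 102 or 105 (adjusted p = 0.209, 0.444 and 0.231). *AttB* has a near-identical copy in *AttA*, so the split of reads between them is uncertain.

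The most abundant peptide of the list did not take part. *Drs*, encoding drosomycin, the standard readout of Toll signalling, stood at 1108, 2569.6 and 1178 CPM in induced and 2975, 2883 and 964 CPM in control libraries. *Def*, encoding defensin, stood at 27.8, 106 and 5.08 CPM against 102, 83.8 and 15.2 CPM. In both genes control 106 lay far below controls 104 and 105, and the groups overlapped.

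Short immune-induced peptides of the Bomanin, Daisho and Baramicin families included 2 called genes. Bomanins and Daisho peptides act downstream of Toll in defence against fungi and Gram-positive bacteria. Of 18 genes measured, 17 had a log2 fold change above 0 (4958 of all 11056 genes) and 2 were called higher (0.109% of all genes) and 0 lower. The groups did not overlap in 5, all higher (3.98% of all genes), and the median was 0.55 (0.49 without control 106). Their summed level overlapped between groups, at 3926 to 6026 CPM in induced and 3677 to 4553 CPM in control libraries. *BomT2* (chromosome 2R, 18388995 to 18389443) stood at 428, 282 and 287 CPM against 163, 135 and 122 CPM, a log2 fold change of 1.25 (SE 0.25, DESeq2 adjusted p = 0.00717). It was not called without 101 (adjusted p = 0.107) or 105 (0.346). *Dso2*, encoding a Daisho peptide (chromosome 2R, 20870392 to 20870678), stood at 52.4, 28.9 and 58.6 CPM against 20.1, 16.3 and 16.2 CPM. On the log2 scale the difference was 1.41 (SE 0.30, DESeq2 adjusted p = 0.0763), with no call without 101 (0.820), 103 (0.499) or 105 (0.757). The abundant *BomS3* overlapped between groups, at 1739.7, 1236 and 2236 CPM against 1501, 1247 and 1212 CPM. *BaraA1*, a Baramicin gene, was the member with a value below 0, at -0.34 (SE 0.72).

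Genes upstream of these peptides gave no call. Of 23 genes of Toll and Imd signalling and 15 peptidoglycan recognition and GNBP genes, 0 were called and 0 had an unadjusted p under 0.05. Their medians were -0.28 and -0.08 with all libraries and 0.14 and 0.20 without control 106. *PGRP-SC2*, encoding a peptidoglycan amidase, stood at 2.69, 3.71 and 8.84 CPM against 7.22, 1.74 and 7.27 CPM.

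Turandot genes, which encode small secreted stress peptides induced through JAK/STAT signalling, gave no call. The 4 Turandot genes measured each had a log2 fold change above 0 and an unadjusted p under 0.05 (1.7% of all genes). *TotA* stood at 61.0, 82.6 and 40.7 CPM against 37.7, 19.7 and 20.6 CPM, with a log2 fold change of 1.24 (SE 0.36, DESeq2 adjusted p = 0.469). *TotC* (1.34, SE 0.39) and *TotM* (1.29, SE 0.41) did not overlap between groups either, with induced 103 just above control 104 in all 3. *TotX* (1.02, SE 0.38) did overlap. The Turandot genes are close paralogs, so they are not independent measurements. The pathway's other 4 genes, *dome*, *hop*, *Stat92E* and *Socs36E*, had log2 fold changes from -0.14 to 0.58.

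**Figure D3:**
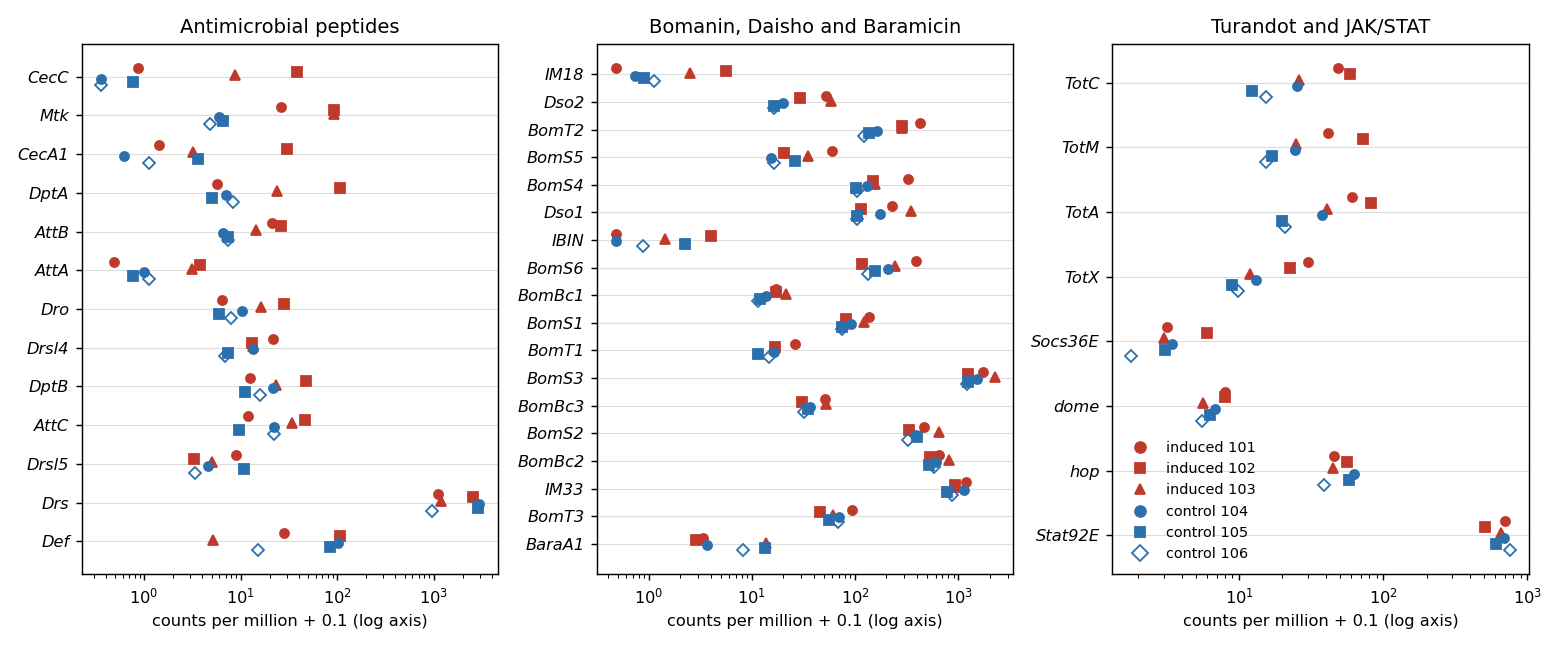
Level of every measured antimicrobial peptide gene (left), Bomanin, Daisho and Baramicin peptide gene (middle) and Turandot or JAK/STAT gene (right) in each fat body library, as CPM plus 0.1 on a log axis. Red symbols are induced libraries and blue symbols controls, with control 106 as the open diamond. *Mtk*, *AttB*, *BomT2*, *Dso2*, *TotA*, *TotC* and *TotM* separate the groups, whereas *Drs* and *Def* do not.

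The smallest DESeq2 adjusted p was that of *Arc1*, a gene descended from a retrotransposon whose protein forms capsids that carry RNA between cells. *Arc1* (chromosome 2R, 14357927 to 14360297) stood at 145, 527 and 1142 CPM in induced libraries and 13.2, 16.2 and 20.1 CPM in controls. Every induced library lay far above the controls, and the induced libraries differed widely among themselves. The log2 fold change was 5.20 (SE 0.75, DESeq2 adjusted p = 2.6e-12), from 4.33 to 5.66 when each library was left out. *CR10102*, annotated as a pseudogene, lies 135 bases away on the same strand (14360433 to 14361780). It stood at 2.30, 15.3 and 48.2 CPM against 0.129, 0.268 and 1.56 CPM, with the induced libraries in the same order as for *Arc1*. For *CR10102* the log2 fold change was 5.04 (SE 1.24, DESeq2 adjusted p = 0.00365), and it was not called without 103 (0.275). Whether the pair shares reads was not tested. *Arc2*, the neighbouring paralog, differed less, at 10.2, 10.5 and 16.1 CPM against 7.74, 5.62 and 4.80 CPM (log2 fold change 1.02, SE 0.33, DESeq2 adjusted p = 0.997).

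Peptide hormone genes were also among the calls. *Ilp6*, which encodes the insulin-like peptide secreted by the fat body, lies on chromosome X (2331493 to 2334658). It stood at 56.6, 75.5 and 121 CPM against 24.4, 25.2 and 35.0 CPM. The log2 fold change was 1.58 (SE 0.32, DESeq2 adjusted p = 0.0235), and 1.78 without control 106. The call was absent without 102, 103, 104 or 105 (adjusted p = 0.190, 0.168, 0.127 and 0.451). *Ilp6* overlaps *Raf* on the opposite strand, and *Raf* had overlapping groups. *Capa*, encoding diuretic and myotropic neuropeptides made by neurosecretory cells, was near 0 in controls. It had 15, 7 and 81 counts in induced and 0, 1 and 0 in control libraries (chromosome 3R, 29912991 to 29914346). The summed counts, 103 against 1, gave a ratio of 117 per total count (exact 95% interval 20.6 to 4676, counting error only). DESeq2 called it (adjusted p = 0.0235) but not without 103 (0.504) or 104 (0.214). Of 15 neuronal marker genes, 7 had a log2 fold change above 0, and their summed level was 211 to 268 CPM in induced and 259 to 345 CPM in control libraries.

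The list of insulin pathway genes and Foxo targets held no other call. Of 26 genes in that list, *Ilp6* was the single one called (0.109% of all genes were called higher), and the median was -0.02. *Thor*, a Foxo target that encodes the translation inhibitor 4E-BP, stood at 827, 1086 and 1668 CPM against 1795, 1685 and 1718 CPM. Its log2 fold change was -0.54 (SE 0.29), with induced 101 the lowest. The groups of *Thor* did not overlap, though induced 103 lay close to the controls. In the list, 1 gene was higher and 2 were lower without overlap, against 3.98% and 4.29% of all genes. *tobi*, an alpha-glucosidase gene responsive to diet and insulin-like peptide, overlapped at 29.2, 3.82 and 9.08 CPM against 6.97, 4.28 and 19.9 CPM. *Adh*, encoding alcohol dehydrogenase, stood at 2617, 3699 and 6754 CPM against 1776, 4524 and 12616 CPM. *aay*, encoding phosphoserine phosphatase, stood at 238, 314 and 351 CPM against 155, 359 and 487 CPM. *Lsd-2*, encoding the lipid droplet protein perilipin-2, stood at 1078, 1288 and 1423 CPM against 788, 1338 and 1762 CPM. In these last 3 genes the lowest control was 104 and the highest library was control 106, so the controls enclosed the induced range.

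The gene of a feeding-related secreted peptide and its overlapping neighbour were higher without overlap of the groups (3.98% of all genes), and the neighbour was called. *fit*, encoding a satiety peptide of the fat body, stood at 188, 122 and 152 CPM against 107, 30.4 and 60.2 CPM (log2 fold change 1.22, SE 0.44, DESeq2 adjusted p = 0.997). *CG31465* (chromosome 3R, 21880810 to 21883990) shares 67 bases with *fit* on the opposite strand. Whether these 2 genes share reads was not tested. *CG31465* stood at 44.7, 23.7 and 15.6 CPM against 10.3, 3.88 and 6.36 CPM. Its log2 fold change was 2.02 (SE 0.50, DESeq2 adjusted p = 0.0804), and it was not called without 101, 102 or 105 (adjusted p of 0.311 or more). *to*, the takeout gene, which encodes a secreted carrier linked to feeding and the circadian clock, stood at 19.2, 12.9 and 14.2 CPM against 6.84, 5.09 and 10.5 CPM. The log2 difference was 1.04 (SE 0.35), with no call over all libraries (DESeq2 adjusted p = 0.997). Of the 6 fits with a library left out, DESeq2 called it in that without control 106 (adjusted p = 0.056), and the adjusted p was 0.519 or more in the others.

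The other 2 genes called higher have no role assigned here. *lncRNA:CR32368* (chromosome 3L, 7915437 to 7915846), a long non-coding RNA, stood at 18.6, 178 and 53.3 CPM against 8.13, 7.90 and 15.2 CPM. The log2 fold change was 3.004 (SE 0.78, DESeq2 adjusted p = 0.0235), with calls without 101 or 103 and no call without 102, 104, 105 or 106 (adjusted p from 0.118 to 0.681). *CG44013* (chromosome 3R, 15508896 to 15509917) stood at 6.91, 3.50 and 5.08 CPM against 1.42, 0.134 and 0.389 CPM. On the log2 scale it differed by 2.95 (SE 0.74, DESeq2 adjusted p = 0.0895), and it was called in 1 of 6 fits with a library left out, that without 104.

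Genes that were lower in induced fat bodies were fewer among the calls. *Obp56d*, encoding an odorant-binding protein (chromosome 2R, 19702924 to 19703915), stood at 16.7, 34.4 and 36.1 CPM in induced and 123, 76.8 and 107 CPM in control libraries. The log2 fold change was -1.81 (SE 0.34, DESeq2 adjusted p = 0.00365), and the call held without any 1 library. Of 20 odorant-binding protein genes, 1 was called, lower (0.0363% of all genes), and 7 had a log2 fold change above 0 (4958 of all 11056 genes). Their median was -0.16, against -0.05 for all genes. *Obp44a* differed in the opposite direction, at 9.40, 6.79 and 20.9 CPM against 3.87, 4.95 and 4.28 CPM (SE 0.46 on the log2 scale, DESeq2 adjusted p = 0.779).

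*CG7300* (chromosome 2L, 10695000 to 10698043) stood at 4.80, 7.64 and 5.08 CPM against 25.2, 14.6 and 20.1 CPM, a log2 fold change of -1.76 (SE 0.33, DESeq2 adjusted p = 0.00365). It was called without any 1 library. *asRNA:CR44181*, annotated on the opposite strand of *CG7300*, carried identical counts in all 6 libraries, so the 2 calls are 1 measurement. *Cyp6d5*, a cytochrome P450 gene (chromosome 3R, 14029228 to 14031483), stood at 172, 139.7 and 160.5 CPM against 313, 239 and 312 CPM. The fold change of *Cyp6d5* on the log2 scale was -0.87 (SE 0.21, DESeq2 adjusted p = 0.0895). It was not called without any 1 of libraries 101 to 105 (adjusted p of 0.283 or more), and it was called without 106 (0.0994). *Cyp6w1*, of the same family, stood at 349, 389 and 545 CPM against 688, 839 and 840.1 CPM and was not called (log2 fold change -0.88, SE 0.24, DESeq2 adjusted p = 0.448). Over 79 cytochrome P450 genes, groups did not overlap at 2 higher and 11 lower, against 3.98% and 4.29% of all genes. The median of the family was -0.30 with all libraries and 0.07 without control 106, which lay above the other 5 at 44 of the 79.

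A further 4 genes, picked as members of their lists with the smallest p, separated the groups without passing the threshold. *MsrA*, encoding methionine sulfoxide reductase, an enzyme that repairs oxidised methionine, stood at 68.3, 93.7 and 90.3 CPM against 141, 154 and 152 CPM. *MsrA* differed by -0.82 on the log2 scale (SE 0.20, DESeq2 adjusted p = 0.152). *Hex-A*, encoding hexokinase, stood at 119, 137 and 122 CPM against 173, 166 and 187 CPM (log2 fold change -0.47, SE 0.18). *Zasp52*, encoding a muscle Z-disc protein, stood at 72.7, 79.6 and 77.1 CPM against 113, 104 and 125 CPM (-0.58, SE 0.18). *RpS29*, encoding a ribosomal protein, stood at 3463, 3436 and 3335 CPM against 6572, 4888 and 4479 CPM (-0.64, SE 0.23). In each of these 4 genes every induced library lay below every control, as in 474 of all 11056 genes (4.29%).

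Ribosomal protein and muscle genes leaned the same way as those members. Of 84 cytoplasmic ribosomal protein genes, 79 had a log2 fold change below 0 (6098 of all 11056 genes), 13 had groups that did not overlap, all lower (4.29% of all genes), and 0 were called (*RpS29* was, without control 106, with a DESeq2 adjusted p of 0.0752). The median was -0.32 with all libraries and -0.21 without control 106, and the summed level was 104241 to 146058 CPM in induced against 144075 to 170530 CPM in control libraries. Of 21 muscle genes, 20 were below 0 (6098 of all 11056 genes) and 2 had groups that did not overlap, all lower (4.29% of all genes). Their median was -0.42, and -0.43 without control 106, while their summed levels overlapped (3772 to 6119 against 5601 to 7790 CPM). The part of muscle content in the lower values was not tested.

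Genes of fat and sugar metabolism had negative medians that rested on control 106. Of 17 genes of fatty acid oxidation and peroxisomes, 16 had a log2 fold change below 0 (6098 of all 11056 genes), with a median of -0.61. Control 106 lay above all 5 other libraries at 16 of the 17 (31.4% of all genes), and the median without it was 0.07. For 23 genes of glycolysis, trehalose, glycogen and gluconeogenesis the median moved from -0.47 to 0.13 without control 106, and 106 lay above the other 5 at 20. The tricarboxylic acid cycle moved from -0.30 to 0.04, fatty acid and triglyceride synthesis from -0.22 to 0.09, and lipid droplets and lipases from -0.30 to 0.24. No member of these 5 lists was called, with or without control 106. *Hex-C*, encoding the hexokinase of the fat body, shows the pattern, at 67.7, 57.9 and 106 CPM in induced and 52.4, 98.1 and 392 CPM in control libraries. *Mcad*, encoding a fatty acid dehydrogenase, stood at 47.8, 37.5 and 59.9 CPM against 41.8, 50.7 and 149.8 CPM. *Tps1*, encoding the enzyme that makes the blood sugar trehalose, stood at 186, 222 and 367 CPM against 210.3, 282 and 749 CPM.

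**Figure D4:**
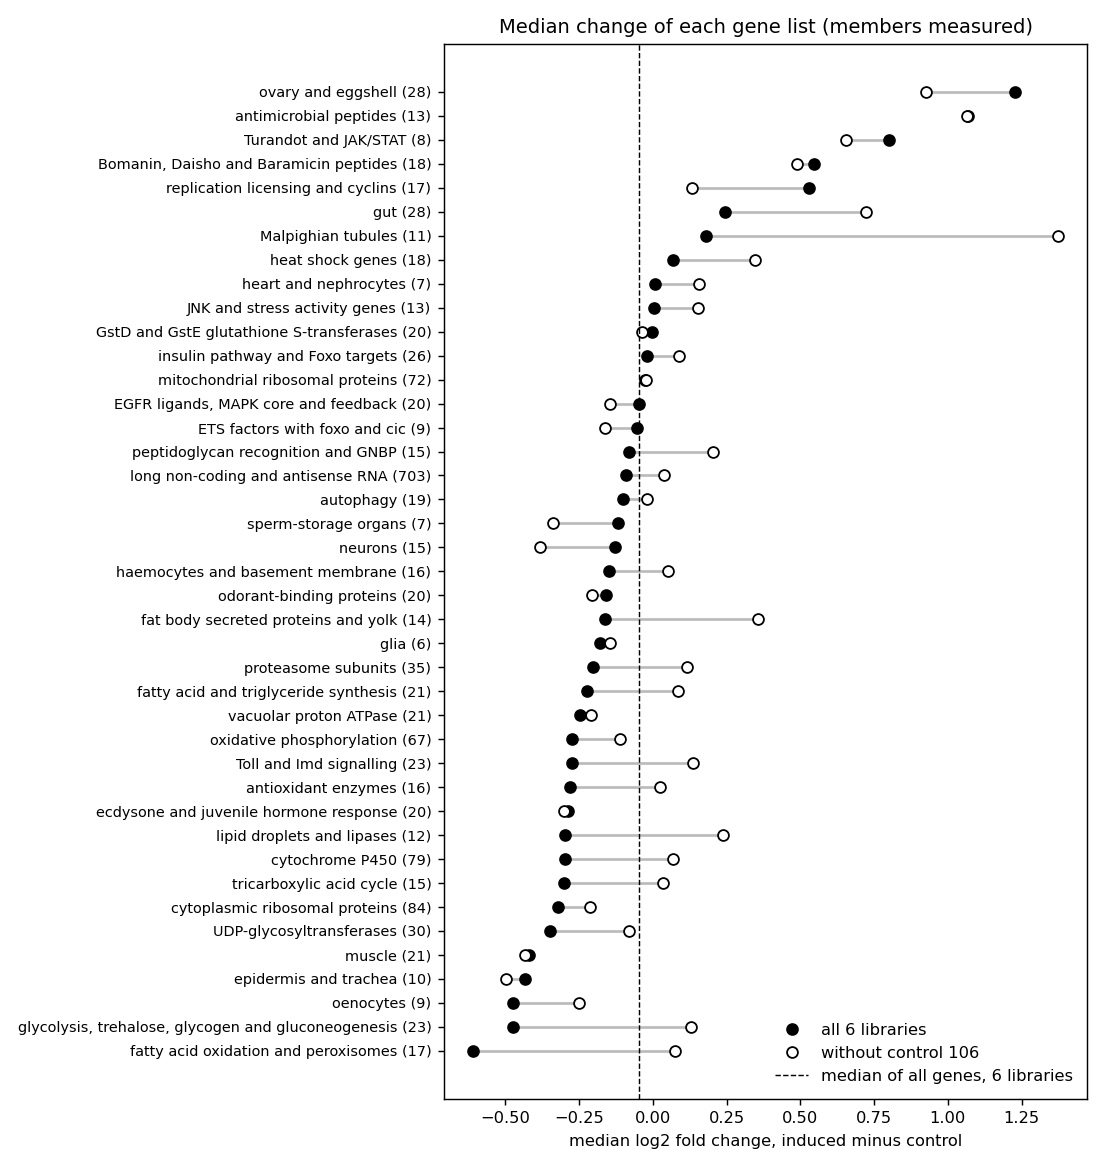
Median log2 fold change (induced minus control) of each gene list with 5 or more measured members, with all 6 libraries (filled points) and without control 106 (open points). The number of measured members is in brackets, and the dashed line is the median of all 11056 genes at -0.05. Antimicrobial peptides were at 1.07 with and without control 106, fatty acid oxidation moved from -0.61 to 0.07, and Malpighian tubule markers moved from 0.18 to 1.37.

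Control 106 differed from the other controls at genes of recognisable tissues. *Yp1*, *Yp2* and *Yp3*, encoding the yolk proteins that the fat body secretes, stood at 65398, 25383 and 10224 CPM in 106. The other 5 libraries held 10014 to 22035 CPM of *Yp1*, 2933 to 9467 CPM of *Yp2* and 1683 to 4003 CPM of *Yp3*. In all 3 genes induced 103 was the second highest library. *Non1*, encoding a nucleolar GTPase, stood at 639 CPM in 106 and 33.8 to 80.5 CPM elsewhere. Of the 10 genes most raised in 106 by the rule in the methods, 4 were annotated antisense RNAs, led by *asRNA:CR31144* at 302 CPM against 1.55 to 33.5 CPM in the other 5. It lies opposite the ribosomal protein gene *RpL3*. How strand entered the counting is not given in the sources used here, so reads of such pairs may not be separable.

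Several of the genes lowest in control 106 were low in induced 103 as well. *CG13159* stood at 0 and 0.121 CPM in 106 and 103 and at 44.7, 188, 176 and 311 CPM in 101, 102, 104 and 105. *ImpE2*, an ecdysone-inducible gene, stood at 0 and 0.121 CPM against 18.8, 8.07, 21.3 and 47.7 CPM. *TwdlG*, encoding a cuticle protein of the Tweedle family, stood at 0 and 0.968 CPM, and also at 0.384 CPM in induced 101, against 66.2, 17.8 and 65.3 CPM in 102, 104 and 105. *chinmo*, encoding a transcription factor of developmental timing, stood at 1.56 and 2.18 CPM against 13.6, 41.3, 36.1 and 61.5 CPM. *Gat*, encoding the GABA transporter of glia, stood at 0.779 CPM in 106 and 5.57 CPM in 103, above induced 101 at 2.11 CPM. These splits ran across the induction groups, so they entered the spread of both.

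Without control 106, DESeq2 called 68 genes higher (0.654%) and 16 lower (0.154%), of which 13 were called with all libraries. Of the 68 higher, control 106 lay within or above the induced range at 49, above all 3 induced libraries at 38, and above both other controls at 63. Controls 104 and 105 were thus the low pair in most of these genes. Their low values follow from the selection, since the fit compared the induced libraries with 104 and 105 alone. Genes called only without 106 are likewise apt to be those where 106 lay toward the induced libraries. Malpighian tubule markers were prominent among them: 6 of the 11 in the list were called without 106, and 0 with it. The tubules are the renal organs of the fly and were not part of the intended tissue. *Uro*, encoding urate oxidase, an enzyme of the tubule's main segment, stood at 81.7, 119 and 100.2 CPM in induced libraries and at 42.4, 46.2 and 148 CPM in controls. *NaPi-T*, a phosphate transporter gene, stood at 64.3, 63.3 and 78.7 CPM against 23.9, 27.2 and 131 CPM. *salt*, a tubule transporter gene, stood at 139, 132 and 202 CPM against 53.8, 53.3 and 185 CPM.

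The same order held for the organic anion transporter genes *Oatp58Da* and *Oatp58Db* and the potassium channel gene *Irk3*. *Oatp58Da* stood at 13.4, 7.75 and 14.4 CPM against 2.45, 3.08 and 19.3 CPM. *Irk3* stood at 18.2, 22.2 and 25.3 CPM against 6.97, 11.1 and 46.1 CPM. Over the 11 markers the summed level was 423 to 545 CPM in induced libraries, 198 and 223 CPM in controls 104 and 105, and 779 CPM in control 106, and no marker was at 0 in any library. The list's median log2 fold change was 0.18 with all libraries and 1.37 without control 106. *Alp4*, an alkaline phosphatase gene of the list, did not follow, at 20.9, 22.3 and 8.35 CPM against 21.2, 29.3 and 43.5 CPM. The part of tubule content in the calls without 106 was not tested. Of the 16 genes called with all libraries, none is in the tubule list. Those called in both fits included *Mtk*, *Arc1*, *Ilp6*, *BomT2* and *Obp56d*, in which control 106 lay with the other controls. A call in both fits itself favours such genes.

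**Figure D5:**
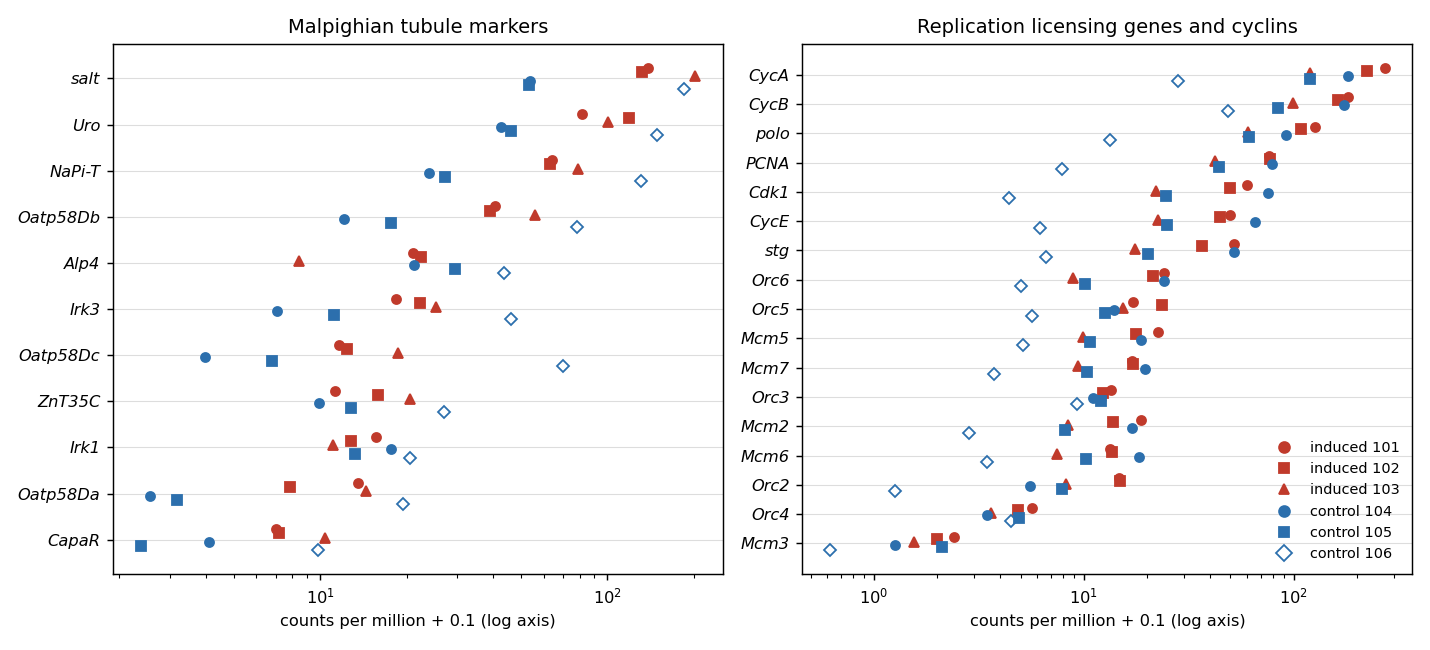
Level of each Malpighian tubule marker (left) and of each replication licensing or cyclin gene (right) in every fat body library, as CPM plus 0.1 on a log axis, ordered by mean level. Red symbols are induced libraries, blue symbols controls and the open diamond control 106. At *Uro*, *NaPi-T*, *salt* and the *Oatp58D* genes controls 104 and 105 lie below the other 4 libraries, and at 16 of the 17 replication genes control 106 lies below the other 5.

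Replication and cell cycle genes formed an opposite gradient. All 17 measured had a log2 fold change above 0 (4958 of all 11056 genes), with a median of 0.53 and 0 called. The median was 0.13 without control 106, which lay below all 5 other libraries at 16 of the 17 (29.1% of all genes). *CycA*, encoding cyclin A, stood at 271, 224 and 120.2 CPM in induced and 181, 119 and 27.9 CPM in control libraries. *PCNA*, encoding the DNA polymerase clamp, stood at 76.2, 76.7 and 42.0 CPM against 78.6, 43.9 and 7.79 CPM. *Orc4*, of the origin recognition complex, was the exception, with control 106 at 4.41 CPM inside a range of 3.35 to 5.56 CPM. Induced 101 had the most *CycA* and the least *Yp1* of the 6 libraries, and control 106 the reverse.

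Ovary and eggshell transcripts were present despite the removal of the reproductive anatomy, and differed between libraries. Of 28 measured, 22 had a log2 fold change above 0 (4958 of all 11056 genes). At an unadjusted p under 0.05 by edgeR, 11 were higher (1.7% of all genes) and 2 lower (1.03%), and 0 were called. The median was 1.23, and 0.92 without control 106, where DESeq2 called *Vm34Ca* (adjusted p = 0.00852) and *Vm26Aa* (0.0369), both encoding vitelline membrane proteins. Their summed level was 359 to 1633 CPM in induced and 164 to 469 CPM in control libraries. *Cp7Fc*, a chorion gene, stood at 2.11, 511 and 1.94 CPM against 0.258, 8.30 and 4.80 CPM, so induced 102 alone carried it at a high level. *Vm34Ca* stood at 3.45, 39.5 and 22.3 CPM against 2.19, 2.01 and 8.05 CPM, with both induced 102 and induced 103 high. *vas*, encoding the germline helicase Vasa, stood at 63.5, 53.9 and 19.5 CPM against 18.8, 21.2 and 4.93 CPM. *exu*, encoding a factor that localises maternal RNA, stood at 73.5, 68.9 and 35.2 CPM against 18.6, 35.2 and 16.9 CPM. Induced 101 and 102 were the highest libraries for both germline genes. Induced 102 was also the highest library for *CecC*, *DptA* and *lncRNA:CR32368*, and the part of ovary content in those values and in the other calls was not tested.

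The remaining marker and housekeeping lists held no calls with all libraries. Gut markers, 28 genes, had a median of 0.24 with and 0.72 without control 106. Oenocyte markers (9 genes, 0 above 0, against 4958 of all 11056 genes) had medians of -0.47 and -0.25. Epidermis and tracheal markers (10 genes, 0 above 0) had medians of -0.43 and -0.50. Of 67 oxidative phosphorylation genes 58 were below 0 (6098 of all 11056 genes), with medians of -0.28 with and -0.11 without control 106. The same held for 20 of 21 subunit genes of the vacuolar proton ATPase (-0.25 and -0.21). Proteasome subunit genes, 31 of 35 below 0, turned in median from -0.20 to 0.12 without control 106, which lay above the other 5 at 23 of them. Mitochondrial ribosomal protein genes were divided, with 32 above and 40 below 0 and a median of -0.03. Heat shock genes were divided as well, 9 above and 9 below 0, although *Hsp26*, encoding a small chaperone, stood at 116, 105 and 76.0 CPM against 58.9, 61.2 and 22.8 CPM without passing the threshold.

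The fat body response was set beside that of the gut in 1 fit over 12 libraries, with the difference between tissues as the tested term. By edgeR 0 of 10005 genes differed at 10% FDR (0.0%), with 342 at an unadjusted p under 0.05, and DESeq2 called 13 (0.13%). *Arc1* differed by 4.94 on the log2 scale (95% interval 3.21 to 6.68, DESeq2 adjusted p = 5.73e-07 and edgeR adjusted p = 0.145), since its log2 fold change in the gut was 0.24 (SE 0.27). *CR10102* (5.87, DESeq2 adjusted p = 0.00692) and *CG44013* (3.59, DESeq2 adjusted p = 0.0261) were the other DESeq2 calls with a larger value in the fat body. For *Mtk* the difference was 2.54 (95% interval 0.11 to 4.97, edgeR adjusted p = 0.999), and for *Ilp6* it was 1.19 (-0.01 to 2.39). For *TotA* it was -0.24 (-1.93 to 1.44), with log2 fold changes of 1.24 in the fat body and 1.45 in the gut. *CG42704* led the DESeq2 calls in the other direction, at 1845, 1613 and 1795 CPM against 3074, 2996 and 2034 CPM in the fat body. Its log2 fold change there was -0.63 (SE 0.24), against 5.48 (SE 0.83) in the gut. The *pnt* log2 fold change was -0.31 (SE 0.21) in the gut, a difference from the fat body of 0.00. No interval is given for this difference, because its computed SE of 0.14 was below that of either tissue alone (0.26 in the fat body).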

How the data were processed

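PolyA RNA of pooled tissue from 12 flies per library was sequenced with molecular identifiers. Per the methods, the authors collapsed duplicates by identifier (Je 1.2), used HiSat2 2.1 for alignment to release 6 of the genome and obtained gene counts from featureCounts 1.6. The deposited count table holds whole-number counts of 11056 fat body genes, from which the authors had dropped genes with no counts and genes not analysed in a companion experiment. The authors also deposited variance-stabilised values from DESeq2, a log2-like score, used here for the principal components and 1 alternative. Symbols and positions for 10969 genes came from the Ensembl annotation of the same assembly.

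Counts were tested with edgeR 4.0.16 (quasi-likelihood, TMM, genes with at least 1 count) and DESeq2 1.42.0 (the tool of the study's methods), in R 4.3.3, at 10% FDR with Benjamini-Hochberg adjustment, 3 induced against 3 control libraries. The study's methods used independent hypothesis weighting (IHW) for the FDR instead, so the study's calls may differ from those here. The SE is the log2 fold change divided by the root of edgeR's F. Pools of flies are taken as replicates, so p-values measure the spread between pools, and no pairing is labelled. The 42 gene lists (59 entries had no measured gene) were described by counts and medians, without a set test. Genes were named by rule: ETS genes and genes named by the study, DESeq2 calls, up to 10 per direction with the smallest p and groups that do not overlap, up to 3 per list and direction, 10 per direction most displaced in control 106 (mean CPM of at least 10, outside the range of the other 5), and 5 for the tissue difference. Genes shown for a list or tissue beyond these were chosen after their values were seen. The members and lists were chosen with earlier results of these data known. Alternatives were other size factors (RLE, upper quartile), low-count filters, limma 3.58.1, 1 fit over 12 libraries and leaving out each library.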

Additional observations from a re-analysis of the deposited data

How the results depend on the processing

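The count of 0 genes by edgeR was the same with RLE or upper-quartile factors, with both low-count filters, at 5% FDR and with limma on the deposited values (274 to 307 genes at an unadjusted p under 0.05). DESeq2 called 16, and 1 fit over all 12 libraries called 1 (*Arc1*). With each library left out, edgeR called 0 to 2 genes, the 2 being *Mtk* and *Arc1* without 101. DESeq2's 16 calls became 17 with genes of at least 10 mean counts, 17 without independent filtering or the Cook flag, 16 with TMM factors and 12 at 5% FDR. They became 12 to 84 with each library left out: 84 without control 106, 33 without induced 103 and 25 without control 104, of which 13, 10 and 12 were among the 16. The *pnt* log2 fold change was -0.40 to -0.18 over all settings. Of 44 other genes followed, 0 changed direction under any setting. Most of the 44 had been picked for a DESeq2 call, a small p or separated groups. Their stable direction was thus largely fixed by that choice. Other genes named above did reverse in edgeR without control 106. *Adh* moved from -0.53 to 0.48, *aay* from -0.15 to 0.24, *Lsd-2* from -0.04 to 0.26 and *PGRP-SC2* from -0.08 to 0.20. For the difference between tissues, edgeR called 0 genes under other factors or filters and 0 to 3 with each library left out: 1 without induced fat body 101, 3 without induced gut 107 and 2 without control gut 110. DESeq2's interaction term called 13. No paired analysis was possible because the labels carry no replicate numbers: each library has a number of its own, and nothing ties an induced library to a control. The fat body libraries had 3 per group, with a biological coefficient of variation of 39.8%.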
